A study of Homo sapiens with 40 samples.

Results

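Collagen genes are described here: every gene on the array whose single symbol is COL, a number, A and a number, with antisense genes left out. There were 43 of them among the 19775 genes named by a single symbol, and each was read from its brightest probe set over all 40 arrays. Of the 43, 30 had a mean level above background and 19 were bright enough to be tested. A stricter background limit took the 99th in place of the 95th percentile of genes from families silent in melanoma cells, and 7 were above it. They were the brightest by mean level: COL4A1, COL4A2, COL9A3, COL18A1, COL6A1, COL27A1 and COL15A1. The other tested genes, among them COL12A1, COL3A1, COL8A1, COL5A1, COL1A1 and COL5A3, were not above the stricter limit. Collagens are secreted proteins of the extracellular matrix in which chains of repeated glycine triplets wind into a rope-like helix. Fibrillar collagens (types I, II, III, V, XI, XXIV and XXVII) build or regulate tensile fibres, fibril-associated collagens coat those fibres, type IV forms the sheet of basement membranes, and the multiplexins XV and XVIII sit at the border of basement membranes. In the skin, melanocytes lie on a basement membrane, and melanoma cells meet fibrillar collagen once they leave it. Outside the cell, collagens are bound by integrins and by discoidin domain receptors.

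The cells were A2058, an established human melanoma line, treated once for 24 hours with an inhibitor of phosphoinositide 3-kinase (PI3K) or with its solvent. BKM120 (buparlisib) and GDC0941 (pictilisib, spelled GCD0941 in the labels) inhibit class I PI3K, and BEZ235 (dactolisib) inhibits PI3K and mTOR. The groups were BKM120 (IC30, IC50 and IC90 (max)), BEZ235 (IC50, IC90 and max), GDC0941 (IC50, IC90 and max), and DMSO, with 4 biological replicates in each of the 10 groups. The labels name the levels by IC or as max, and neither the molar concentrations nor the response behind the IC values are stated in them. All arrays come from 1 cell line, so p-values measure only the spread between these samples, and the 4 arrays in a group limit the precision. A lower level of a transcript in a dish can come from fewer cells of a kind or from less RNA per cell, and the arrays cannot tell these apart.

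All 9 melanoma markers named on the array (MLANA, PMEL, TYR, TYRP1, SOX10, MITF, S100B, S100A1 and GPR143) were above background, with a summed signal of 9122 to 12740 on treated arrays and 8075 to 8554 on DMSO arrays. Of 7 fibroblast markers 6 were above background, led by LUM at a mean signal of 1193, and POSTN was at background (5.13). Their summed signal, which is mostly LUM, was 829.6 to 1682 on treated arrays and 1196 to 1380 on DMSO arrays. Of 5 endothelial markers KDR (25.4) and PECAM1 (15) were above background and CDH5, VWF and TEK were not. Of 6 keratinocyte markers KRT10 (939.7) and KRT14 (43.6) were above it and KRT5, KRT1, CDH1 and DSG3 were not, and of 4 leukocyte markers LYZ (178) was above it and PTPRC, CD3E and CD14 were not. The part of these markers in the collagen results was not tested. A single array stood apart, replicate 3 of BEZ235 IC50: its GAPDH 3'/5' ratio was 3.442, against 1.05 to 1.265 on the other 39 arrays. Results at BEZ235 IC50 are therefore given with and without it.

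Values are signals in the units of MAS5, the array maker's summary algorithm, and changes are differences of mean log2(signal + 16), which understate the change of dim genes. Background was set at a mean log2(signal + 16) of 4.50, equal to a signal of 6.65. This was the 95th percentile of 175 genes from families silent in melanoma cells, such as olfactory receptors. The limit for testing was a mean of 4.89 on the same scale, the 40th percentile of all genes. The basement membrane chains COL4A1 and COL4A2 had mean signals of 1358 and 977 over the 40 arrays. In the type IV class 4 of 6 genes were above background, among the fibrillar genes 9 of 11, among the fibril-associated genes 8 of 10, among the beaded-filament type VI genes 3 of 5, and among the transmembrane genes 2 of 3. Both multiplexins and the anchoring-fibril gene COL7A1 were also above it, as was COL8A1 alone of the 3 short-chain network genes.

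**Figure D1:**
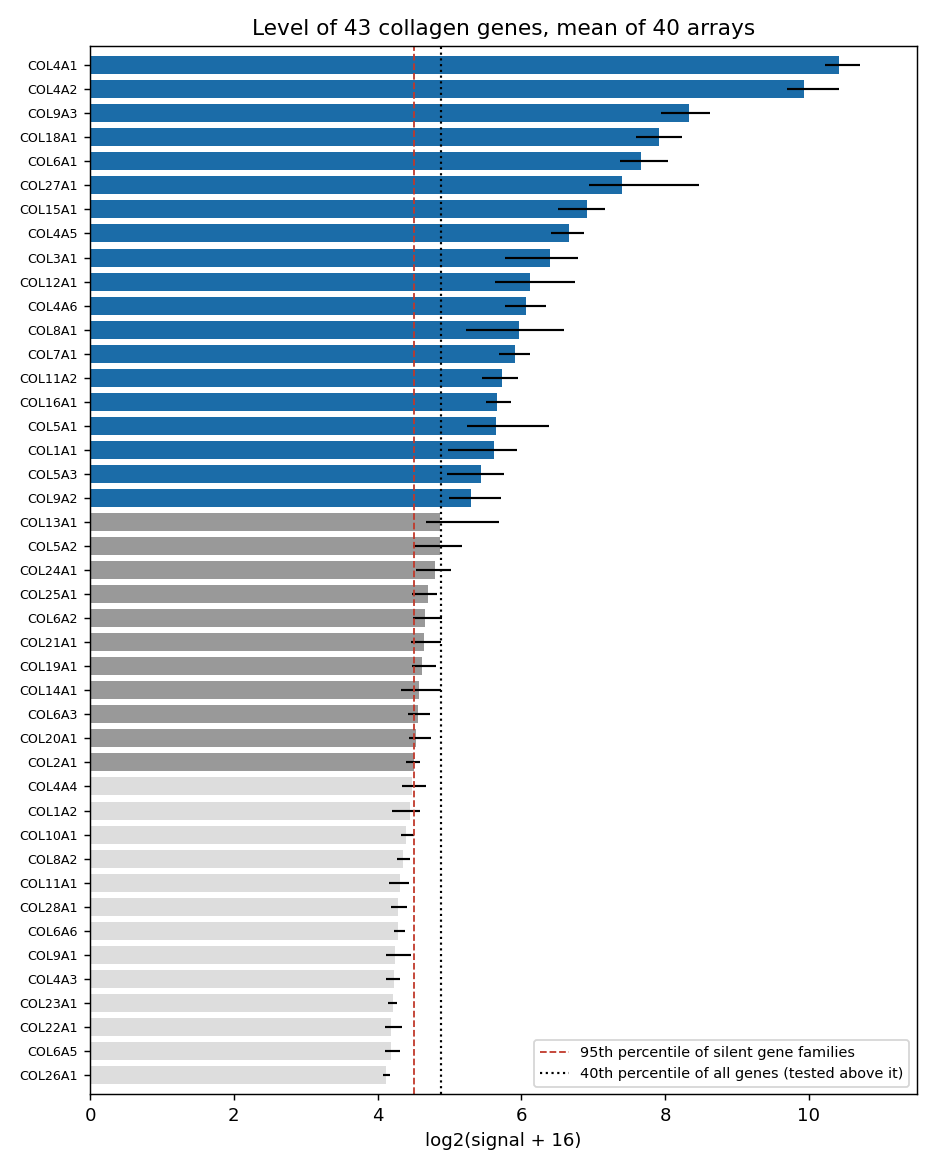
Mean log2(signal + 16) over 40 arrays for each of the 43 collagen genes, with a black line from the lowest to the highest of the 10 group means. Blue bars are the 19 genes tested, grey bars the 11 above background but below the limit for testing, and pale bars the 13 at or below background.

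Type I collagen is normally a trimer of the products of COL1A1 and COL1A2, and of this pair only COL1A1 was above background, COL1A2 lying between 0.2 and 21 with a mean signal of 6.15. For type VI, whose filaments need 3 different chains, COL6A1 was bright at 191, and COL6A2 (9.36) and COL6A3 (7.86) were only just above background. That level of COL6A1 is from the brightest of its 8 probe sets. The others had a mean log2(signal + 16) of 4.474 to 5.189, beside 4.655 for COL6A2 and 4.568 for COL6A3. Type IX showed COL9A3 at 311 and COL9A2 at 24.2, and COL9A1 was at 3.09, below background. Different probe sets bind with different strength, so these levels do not measure the proportions of the chains. The 13 genes at or below background were COL4A4, COL1A2, COL10A1, COL8A2, COL11A1, COL28A1, COL6A6, COL9A1, COL4A3, COL23A1, COL22A1, COL6A5 and COL26A1. By mean log2(signal + 16), COL2A1 lay just inside the background limit at 4.502 and COL4A4 just outside at 4.481, and COL9A2 lay inside the limit for testing at 5.304 and COL13A1 outside at 4.873.

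Treatment moved individual collagen genes in both directions. COL12A1 was lower in 8 of 9 treatments, COL9A3 was higher in all 9 and COL15A1 in 8. COL27A1 and COL5A1 were lower at the lower levels of BKM120 and higher at its highest level. COL8A1 and COL5A3 were lower at all 3 levels of BEZ235, and COL1A1 at IC90 and max. A gene was called when limma's Benjamini-Hochberg adjusted p, over all 11865 genes tested in that comparison, was under 0.05.

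Of the 19 tested collagen genes, BKM120 IC30 called 6 (2 higher, 4 lower) where 21.2% of all tested genes were called (13.1% higher, 8.17% lower), and BKM120 IC50 called 7 (3 higher, 4 lower) where 19.9% of all tested genes were called (12.5% higher, 7.34% lower). BKM120 IC90 (max) called 8 (7 higher, 1 lower) where 34.5% of all tested genes were called (17.3% higher, 17.3% lower). For BEZ235 the counts were 10 at IC50 (5 higher, 5 lower), 10 at IC90 (4 higher, 6 lower) and 10 at max (5 higher, 5 lower). At BEZ235 IC50 45.5% of all tested genes were called (26.3% higher, 19.2% lower), at IC90 55% of all tested genes were called (30.8% higher, 24.1% lower), and at max 57.9% of all tested genes were called (32.7% higher, 25.2% lower). GDC0941 called 7 at IC50 (3 higher, 4 lower), 7 at IC90 (3 higher, 4 lower) and 11 at max (6 higher, 5 lower). At GDC0941 IC50 16% of all tested genes were called (9.81% higher, 6.15% lower), at IC90 25.2% of all tested genes were called (15.2% higher, 9.97% lower), and at max 43.9% of all tested genes were called (25.5% higher, 18.4% lower). The share of collagen genes called was thus near that of all genes for BEZ235. Without the degraded array, which enters the spread shared by all groups, the counts over the BKM120 levels were 8 (4 higher, 4 lower), 8 (4 higher, 4 lower) and 12 (11 higher, 1 lower), over BEZ235 8 (4 higher, 4 lower), 11 (5 higher, 6 lower) and 12 (6 higher, 6 lower), and over GDC0941 7 (3 higher, 4 lower), 9 (5 higher, 4 lower) and 11 (6 higher, 5 lower). The shares of all tested genes, here and below, come from fits that include the degraded array. They are not a background for the counts without it, for which no share is given. The 9 comparisons share the 4 DMSO arrays. The median change of the 19 lay between -0.15 (GDC0941 IC50) and 0.26 (BKM120 IC90 (max)), beside 0.01 and -0.004 for all tested genes in these comparisons.

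**Figure D2:**
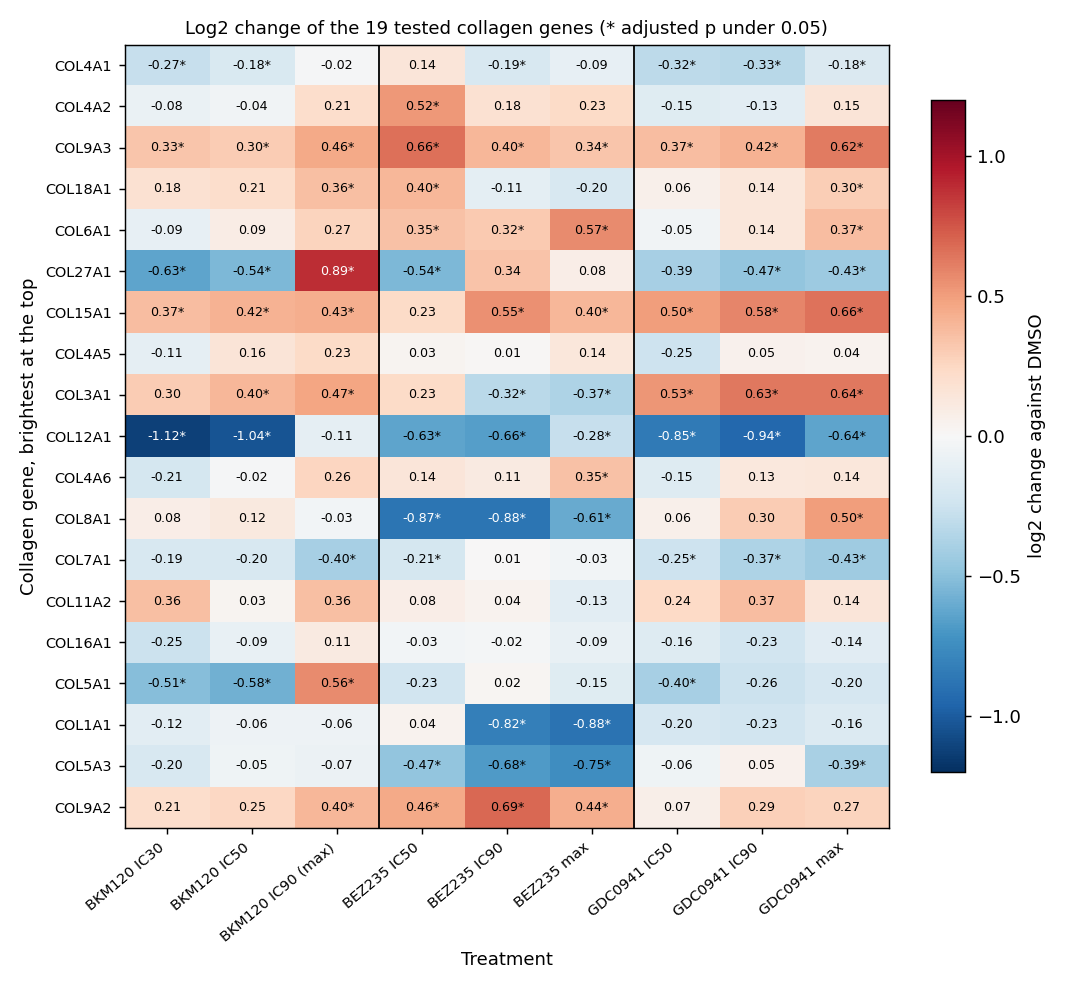
Log2 change against DMSO of the 19 tested collagen genes (rows, brightest at the top) in the 9 treatments (columns), from blue (lower) to red (higher), with a star at an adjusted p under 0.05. COL12A1 is blue across the row except at BKM120 IC90 (max), where it is -0.11, and COL9A3 and COL15A1 are red throughout.

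Among the fibrillar genes, COL27A1, which encodes a collagen of cartilage and developing tissue, changed direction with the level of BKM120. On DMSO arrays its signals were 182, 188, 169.9 and 160, at BKM120 IC30 97.8, 106, 114 and 109.8, at IC50 122, 109, 116 and 113, and at IC90 (max) 311, 321, 343 and 376. No array of the lower levels reached the DMSO range, and every array of the highest level lay above it. COL27A1 fell by 0.63 (SE 0.16, adjusted p = 0.00441) at IC30 and by 0.54 (SE 0.16, adjusted p = 0.0165) at IC50, and rose by 0.89 (SE 0.16, adjusted p = 4.51e-05) at IC90 (max). BEZ235 arrays held 98.9, 142, 119 and 105 at IC50, 198, 154, 456 and 179.9 at IC90 and 207, 192, 191 and 156 at max. All 4 arrays at BEZ235 IC50 lay below DMSO, a fall of 0.54 (SE 0.16, adjusted p = 0.00736) that was 0.55 without the degraded array (adjusted p = 0.0094). The other levels overlapped DMSO, with changes of 0.34 (SE 0.16, adjusted p = 0.0775) and 0.08 (SE 0.16, adjusted p = 0.696), and at IC90 replicate 3 alone held 456. Without that array the IC90 change was 0.02 (adjusted p = 0.915), and without replicate 2 or 4 it was a called rise of 0.51 (0.00976) or 0.44 (0.0334). GDC0941 arrays held 147, 115, 108 and 151 at IC50, 110.1, 138, 118 and 121 at IC90 and 118, 124, 145 and 116 at max, all below the lowest DMSO array. The change was -0.39 (SE 0.16, adjusted p = 0.0995) at IC50, which did not pass but was called with the mean over probe sets (-0.21, 0.00743) and in a fit of those groups alone (0.0131), and COL27A1 fell by 0.47 (SE 0.16, adjusted p = 0.0302) at IC90 and by 0.43 (SE 0.16, adjusted p = 0.0305) at max. The call at GDC0941 IC90 was lost without DMSO replicate 1 or 2 or its own replicate 1, 3 or 4 (adjusted p 0.0554 to 0.0808), and the call at max without DMSO replicate 1 or 2 or its own replicate 1, 2 or 4 (0.0538 to 0.0736). A second probe set of the gene moved by -0.61, -0.57 and 0.74 over the 3 BKM120 levels.

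COL5A1, which encodes the chain that nucleates type I fibrils and sets their width, had the same turn under BKM120. Signals were 41.7, 29.1, 57.1 and 37 on DMSO arrays, 20, 22, 25.9 and 26.7 at BKM120 IC30, 25.8, 26.2, 16 and 20 at IC50 and 67.3, 71.3, 65.1 and 65.5 at IC90 (max). The lower levels lay wholly below DMSO and the highest wholly above it. COL5A1 fell by 0.51 (SE 0.14, adjusted p = 0.0079) at IC30 and by 0.58 (SE 0.14, adjusted p = 0.003) at IC50, and rose by 0.56 (SE 0.14, adjusted p = 0.00186) at IC90 (max). Without DMSO replicate 3, the highest of its group, the IC30 call was lost (-0.39, adjusted p = 0.0579). BEZ235 arrays overlapped DMSO at all levels, with 35.3, 40.7, 17.3 and 38.6 at IC50, 43.2, 35.6, 43.7 and 42.9 at IC90 and 45.5, 28.6, 30.7 and 36.5 at max, and changes of -0.23 (-0.06 without the degraded array), 0.02 and -0.15. GDC0941 arrays held 38.2, 22.8, 23.8 and 23.5 at IC50, 23.5, 35.9, 35.3 and 30.5 at IC90 and 34.3, 35.9, 25.5 and 37.1 at max, and also overlapped DMSO. COL5A1 fell by 0.40 (SE 0.14, adjusted p = 0.0466) at GDC0941 IC50, a call lost without DMSO replicate 1, 3 or 4 or its own replicate 2, 3 or 4 (adjusted p 0.0577 to 0.218), and also with a pseudocount of 1, with no filter, after quantile normalization, with a replicate block and in a fit of those groups alone (0.0527 to 0.0794). Its changes at IC90 and max were -0.26 and -0.20, and with the mean over probe sets these were called (-0.25 and -0.23), as was -0.20 at BEZ235 IC50. The second probe set above background moved by -0.61, -0.59 and 0.38 over the BKM120 levels.

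COL1A1, the main chain of type I collagen, fell in 2 of the 9 comparisons with DMSO, at the upper levels of BEZ235. BEZ235 arrays held 36.9, 38.8, 73.4 and 33.3 at IC50, 14.4, 15.3, 19.6 and 19.2 at IC90 and 17.1, 14.3, 15.1 and 15.8 at max, beside 47.4, 50.6, 26.1 and 48.6 on DMSO arrays. At IC90 and max every array lay below every DMSO array, and at IC50 the groups overlapped. COL1A1 fell by 0.82 (SE 0.15, adjusted p = 1.60e-05) at IC90 and by 0.88 (SE 0.15, adjusted p = 4.08e-06) at max. At BEZ235 IC50 it differed from DMSO by 0.04 (SE 0.15, adjusted p = 0.856), and by -0.155 without the degraded array, on which it read 73.4. BKM120 arrays held 35.8, 34.6, 34.2 and 45.9 at IC30, 40.8, 33.8, 37.7 and 47.5 at IC50 and 41.9, 33.2, 51.6 and 34.7 at IC90 (max), within or across the DMSO range. GDC0941 arrays held 48.4, 31.5, 38 and 24.2 at IC50, 41.3, 28.4, 31.6 and 34.6 at IC90 and 35.8, 35.8, 30 and 43 at max. None of these 6 changes, between -0.23 and -0.06, passed the test. Other probe sets differed: one moved by -0.51 and -0.52 at BEZ235 IC90 and max, and one whose name marks it as cross-hybridising by 0.01 and 0.10.

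COL3A1, the type III chain of elastic tissues and healing wounds, rose under GDC0941 and fell at the upper levels of BEZ235 on its brightest probe set. Signals at GDC0941 were 112, 83.2, 90.2 and 63.8 at IC50, 102, 77.4, 97.1 and 98.8 at IC90 and 93, 108, 71.9 and 106 at max, beside 55.2, 64.9, 44.1 and 56.2 on DMSO arrays. Only replicate 4 at IC50 fell within the DMSO range. COL3A1 rose by 0.53 (SE 0.14, adjusted p = 0.00621), 0.63 (SE 0.14, adjusted p = 0.000668) and 0.64 (SE 0.14, adjusted p = 0.000266) over the 3 levels. BEZ235 arrays held 59, 56.1, 96.9 and 62.1 at IC50, 37.1, 44, 44.7 and 37 at IC90 and 37.7, 31.8, 48.1 and 38.2 at max, all overlapping DMSO. COL3A1 fell by 0.32 (SE 0.14, adjusted p = 0.0469) at IC90 and by 0.37 (SE 0.14, adjusted p = 0.0207) at max, and differed by 0.23 (SE 0.14, adjusted p = 0.17) at IC50, or 0.09 without the degraded array. The call at max was lost without DMSO replicate 2 or BEZ235 max replicate 2 (adjusted p 0.0782 to 0.0784). The call at IC90 was lost without DMSO replicate 1, 2 or 4 or its own replicate 1, 2 or 4 (0.0511 to 0.148), with no filter (0.0766), with a pseudocount of 64 (0.0791) and with a replicate block (0.0539). BKM120 arrays held 69.1, 68.2, 68.4 and 79.7 at IC30, 100.1, 75.5, 60.5 and 76.8 at IC50 and 82.7, 82.4, 95 and 69.9 at IC90 (max), and the first and last of these levels lay wholly above DMSO. The changes were 0.30 (SE 0.14, adjusted p = 0.12), 0.40 (SE 0.14, adjusted p = 0.037) and 0.47 (SE 0.14, adjusted p = 0.0071), and the middle call was lost without DMSO replicate 1, 3 or 4 or its own replicate 1, 2 or 4 (0.0588 to 0.173) and with no filter (0.0645). With the mean over all 5 probe sets only the GDC0941 IC90 and max calls held, and the others had adjusted p of 0.0805 to 0.309, while BEZ235 IC50 was called as a rise (0.20, 0.0235). The 2 other probe sets above background moved by 0.36, -0.002 and 0.10, and by 0.42, -0.10 and 0.06, over the BEZ235 levels.

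COL5A3, a rarer chain of type V collagen, fell at every level of BEZ235. Its arrays there held 22.9, 19.5, 19 and 25 at IC50, 15.9, 13.4, 19.1 and 18 at IC90 and 13, 10.6, 20.1 and 17 at max, beside 43.2, 36.8, 36.6 and 28.6 on DMSO arrays. All 12 BEZ235 arrays lay below all DMSO arrays. The falls were 0.47 (SE 0.10, adjusted p = 0.000348) at IC50, or 0.44 without the degraded array, 0.68 (SE 0.10, adjusted p = 8.44e-07) at IC90 and 0.75 (SE 0.10, adjusted p = 1.08e-07) at max. GDC0941 arrays held 33.5, 32.8, 36.2 and 33.8 at IC50, 39.6, 43.1, 30.2 and 40.1 at IC90 and 27.8, 28.2, 22.1 and 18.1 at max. Only the last were wholly below DMSO, where COL5A3 fell by 0.39 (SE 0.10, adjusted p = 0.00255), and the lower levels differed by -0.06 and 0.05. BKM120 arrays held 26.3, 32.2, 28.4 and 31.1 at IC30, 37.2, 32.6, 36 and 31.6 at IC50 and 29.5, 42, 36.7 and 27.6 at IC90 (max), with changes of -0.20, -0.05 and -0.07 that did not pass. With the mean over probe sets COL5A3 was called as lower at BKM120 IC30 (-0.24, adjusted p = 0.0195). A second probe set moved by -0.46, -0.73 and -0.71 over the BEZ235 levels. On it the changes were -0.29, -0.21 and -0.08 over BKM120 and -0.249, -0.165 and -0.561 over GDC0941. The remaining tested fibrillar gene, COL11A2, a chain of cartilage fibrils, was called in none of the 9 comparisons with DMSO, with changes of -0.13 to 0.37 and signals of 25 to 69.8, the highest on the degraded array. Without that array it rose by 0.36 (adjusted p = 0.0138) at BKM120 IC30, 0.36 (adjusted p = 0.00811) at BKM120 IC90 (max) and 0.37 (adjusted p = 0.00906) at GDC0941 IC90, and fits of those groups alone also called these (0.0111 to 0.023).

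**Figure D3:**
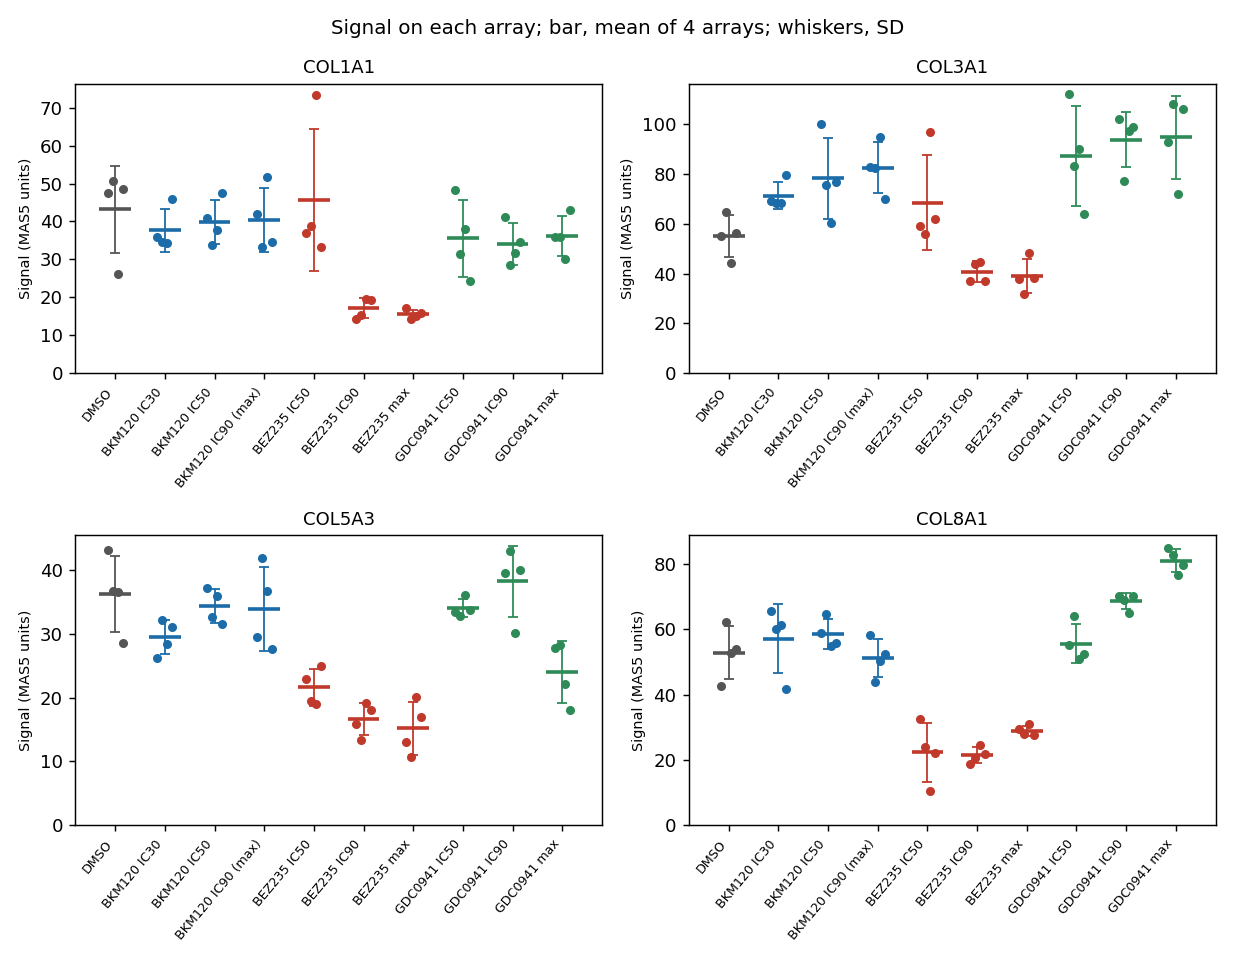
Signal of COL1A1, COL3A1, COL5A3 and COL8A1 on each array (points), with the mean (bar) and SD (whiskers) of 4 arrays, for DMSO and each treatment in order of level. COL1A1 is low at BEZ235 IC90 and max (14.3 to 19.6), and COL8A1 and COL5A3 are low at all 3 BEZ235 levels.

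Of the fibril-associated genes, COL12A1, whose product bridges fibrils and other matrix proteins in tissues under load, showed the largest falls of the 19 against DMSO. Signals were 91.2, 95.5, 84 and 94.2 on DMSO arrays, 32.3, 36.5, 30.2 and 34.8 at BKM120 IC30, 38, 40.6, 33.4 and 33.3 at IC50 and 88.6, 79.3, 86.4 and 80.2 at IC90 (max). The lower levels lay far below DMSO and the highest overlapped it. COL12A1 fell by 1.12 (SE 0.12, adjusted p = 2.22e-09) at IC30 and by 1.04 (SE 0.12, adjusted p = 1.34e-08) at IC50, and differed by -0.11 (SE 0.12, adjusted p = 0.507) at IC90 (max). BEZ235 arrays held 52.3, 49, 60.8 and 51.3 at IC50, 56.9, 53.5, 49.6 and 47.4 at IC90 and 79.7, 66.2, 77.3 and 66.5 at max, all below the lowest DMSO array. It fell by 0.63 (SE 0.12, adjusted p = 3.37e-05) at IC50 (0.68 without the degraded array), by 0.66 (SE 0.12, adjusted p = 8.06e-06) at IC90 and by 0.28 (SE 0.12, adjusted p = 0.0364) at max. The call at BEZ235 max was lost without DMSO replicate 1, 2 or 4 or its own replicate 2 or 4 (adjusted p 0.0596 to 0.0952), with a pseudocount of 1 (0.07) and with no filter (0.0629). GDC0941 arrays held 55.1, 37.8, 35 and 48.7 at IC50, 22.5, 40.5, 55.4 and 46.4 at IC90 and 58.4, 54.8, 46.4 and 52.6 at max, all below DMSO too, and the falls were 0.85 (SE 0.12, adjusted p = 1.11e-06), 0.94 (SE 0.12, adjusted p = 5.86e-08) and 0.64 (SE 0.12, adjusted p = 2.37e-05). The only other probe set above background did not repeat falls of this size. It moved by -0.23, -0.23 and 0.05 over the BKM120 levels and by 0.05, -0.09 and 0.13 over BEZ235. Over GDC0941 it moved by -0.13, -0.06 and 0.07. Its mean level, 4.508, was so near the background limit of 4.501 that it cannot decide whether the falls are shared.

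Promoter windows of the 3 genes that changed most with the level of BKM120, COL27A1, COL5A1 and COL12A1, are printed as the stretch that their common and differing motifs were read from. RefSeq's table (build GRCh38.p14), with 250 bases before and 50 after each start, held windows for 14 of the 19 tested genes and for 31 of all 43. Capitals mark matches, on either strand, to the GC box bound by SP1 (GGGCGG) and to the TEAD motif (GGAATG).
COL27A1, chr9:114155287-114155586, plus strand: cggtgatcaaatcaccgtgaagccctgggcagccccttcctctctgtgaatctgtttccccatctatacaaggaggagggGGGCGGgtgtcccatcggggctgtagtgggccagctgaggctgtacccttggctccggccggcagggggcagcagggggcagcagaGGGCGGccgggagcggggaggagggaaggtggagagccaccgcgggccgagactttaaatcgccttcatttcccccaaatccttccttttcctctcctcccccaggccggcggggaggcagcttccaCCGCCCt
COL5A1, chr9:134641553-134641852, plus strand: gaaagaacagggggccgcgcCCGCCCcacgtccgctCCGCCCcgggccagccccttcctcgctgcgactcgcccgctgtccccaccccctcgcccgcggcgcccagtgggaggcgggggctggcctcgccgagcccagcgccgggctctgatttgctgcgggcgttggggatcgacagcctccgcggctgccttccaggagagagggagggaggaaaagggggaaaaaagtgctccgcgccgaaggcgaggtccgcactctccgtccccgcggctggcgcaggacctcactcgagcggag
COL12A1, chr6:75206004-75206303, minus strand: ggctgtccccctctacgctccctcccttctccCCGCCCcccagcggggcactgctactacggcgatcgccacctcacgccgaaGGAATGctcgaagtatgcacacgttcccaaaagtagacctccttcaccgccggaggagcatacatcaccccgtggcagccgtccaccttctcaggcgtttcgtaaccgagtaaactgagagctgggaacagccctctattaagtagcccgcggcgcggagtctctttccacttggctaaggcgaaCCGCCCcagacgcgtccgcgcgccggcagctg
The GC box was in 12 of the 14 windows and in 44.95% of all 35116 windows in the table. The TEAD motif was in 2 of the 14, COL12A1 among them at 167 bases before its start, and in 14.03% of all windows. The AP-1 motif TGANTCA (7.709% of all windows), the FOXO motif GTAAACA (3.423%) and the E-box CACGTG of MITF and MYC (7.256%) were in none of the 14. SMAD motifs (GTCTAGAC or CAGACA, 17.05%) were in 3, CCAAT boxes (34.61%) in 5 and a TATAAA (11.53%) in 1. For each collagen gene 1 window was read, that with the lowest start coordinate. The shares are over all windows, those of genes not tested included, so the sets are unlike. A match is a run of letters and not a measured binding site.

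COL9A3, a chain of the type IX collagen that decorates cartilage fibrils, was higher in all 9 treatments. Signals were 228, 234, 249.8 and 211 on DMSO arrays, 299, 284, 297 and 295 at BKM120 IC30, 303, 249.6, 287 and 318 at IC50 and 337, 349.6, 317 and 289 at IC90 (max). BEZ235 arrays held 349, 326, 486 and 353 at IC50, 307, 356, 287 and 288 at IC90 and 309.8, 246, 360.5 and 275 at max. Only replicate 2 of BKM120 IC50 and of BEZ235 max fell within the DMSO range. COL9A3 rose by 0.46 (SE 0.11, adjusted p = 0.000972) at BKM120 IC90 (max), 0.66 (SE 0.11, adjusted p = 5.75e-06) at BEZ235 IC50 (0.54 without the degraded array) and 0.40 (SE 0.11, adjusted p = 0.0021) at BEZ235 IC90. GDC0941 arrays held 311, 298, 289 and 316 at IC50, 294, 372, 346 and 251 at IC90 and 346, 341, 418 and 350 at max, and all 12 lay above every DMSO array. The rises were 0.42 (SE 0.11, adjusted p = 0.00367) at IC90 and 0.62 (SE 0.11, adjusted p = 1.27e-05) at max. The other 4 calls were lost on leaving out an array: 0.33 (SE 0.11, adjusted p = 0.0242) at BKM120 IC30 without DMSO replicate 1 or 4 or its own replicate 1 or 3 (adjusted p up to 0.082), and 0.30 (SE 0.11, adjusted p = 0.0416) at BKM120 IC50 without DMSO replicate 1, 2 or 4 or its own replicate 1, 3 or 4 (up to 0.131). The rise of 0.34 (SE 0.11, adjusted p = 0.00775) at BEZ235 max was lost without its replicate 3 (0.25, 0.0612) and that of 0.37 (SE 0.11, adjusted p = 0.0134) at GDC0941 IC50 without DMSO replicate 4 (0.33, 0.0516). With no filter the BKM120 IC50 call was also lost (0.0644).

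COL9A2, a second type IX chain and the dimmest gene tested, was higher at BEZ235. Its arrays held 24.5, 22.3, 49.6 and 20.1 at IC50, 32.7, 26.2, 56.6 and 31.3 at IC90 and 24.3, 31.1, 29.2 and 25 at max, all above the DMSO arrays at 16.1, 17, 16.5 and 14.2. COL9A2 rose by 0.69 (SE 0.15, adjusted p = 0.000148) at IC90 and by 0.44 (SE 0.15, adjusted p = 0.0109) at max, and by 0.46 (SE 0.15, adjusted p = 0.0118) at IC50, where the call was lost without the degraded array (0.26, adjusted p = 0.116) and in a fit of those groups alone (0.101). BKM120 arrays held 17.8, 18.3, 22.9 and 25 at IC30, 26.3, 20.6, 20.2 and 20.8 at IC50 and 24.6, 23.6, 20.4 and 38.3 at IC90 (max), above DMSO at each level. Only IC90 (max) was called, at 0.40 (SE 0.15, adjusted p = 0.0317), and the call was lost without DMSO replicate 1 or 4 or its own replicate 4 (0.0544 to 0.168), with a pseudocount of 64 (0.0537), with no filter (0.0508) and after quantile normalization (0.152). GDC0941 arrays held 12.8, 21.9, 18.8 and 17.2 at IC50, 21, 31.1, 18 and 22.7 at IC90 and 24, 23, 26.7 and 17.1 at max, with changes of 0.07, 0.29 and 0.27 that did not pass. COL16A1, a fibril-associated collagen found in skin and cartilage, was called in no comparison with DMSO (-0.25 to 0.11, signals 23.2 to 53.6).

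COL4A1 and COL4A2 encode the chains of the common type IV trimer of basement membranes, and their genes lie head to head on chromosome 13 with start sites 127 bases apart. Their RefSeq promoter windows overlap by 226 bases, and the window of COL4A2 is printed because the pair shares it, with matches on either strand to the GC box and to CCAAT in capitals.
COL4A2, chr13:110307034-110307333, plus strand: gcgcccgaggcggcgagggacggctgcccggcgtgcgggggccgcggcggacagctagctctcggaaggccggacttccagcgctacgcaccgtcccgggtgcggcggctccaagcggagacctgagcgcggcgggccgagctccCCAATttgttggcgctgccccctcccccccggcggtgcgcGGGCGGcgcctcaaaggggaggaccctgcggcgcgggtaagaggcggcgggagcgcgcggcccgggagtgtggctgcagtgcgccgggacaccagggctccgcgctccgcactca
COL4A1 held 1543, 1386, 1502 and 1546 on DMSO arrays, 1130.5, 1305, 1234 and 1267 at BKM120 IC30, 1246, 1387, 1269 and 1356 at IC50 and 1463, 1474, 1458 and 1502 at IC90 (max). BEZ235 arrays held 1524, 1574, 2001 and 1539 at IC50, 1339, 1348, 1232 and 1318 at IC90 and 1504, 1348, 1333 and 1409.6 at max. GDC0941 arrays held 1290.4, 1149, 1118 and 1230 at IC50, 1162, 1209, 1193 and 1163 at IC90 and 1348, 1345, 1314 and 1267 at max. All GDC0941 arrays, all BKM120 IC30 arrays and all BEZ235 IC90 arrays lay below the lowest DMSO array. COL4A1 fell by 0.32 (SE 0.061, adjusted p = 0.000225) and 0.33 (SE 0.061, adjusted p = 6.53e-05) at GDC0941 IC50 and IC90. Smaller falls were 0.27 (SE 0.061, adjusted p = 0.00106) at BKM120 IC30, 0.19 (SE 0.061, adjusted p = 0.00885) at BEZ235 IC90, 0.18 (SE 0.061, adjusted p = 0.0169) at GDC0941 max and 0.18 (SE 0.061, adjusted p = 0.0298) at BKM120 IC50. With the mean over both probe sets these 4 calls were lost (adjusted p = 0.051, 0.456, 0.578 and 0.0558, in the order given). The call at GDC0941 max was also lost without DMSO replicate 4 or its own replicate 4 (0.0517 to 0.0541), and that at BKM120 IC50 without DMSO replicate 1, 3 or 4 or its own replicate 1 or 3 (0.0589 to 0.0988). The other 3 changes were -0.02 at BKM120 IC90 (max), 0.14 at BEZ235 IC50 (0.05 without the degraded array, but called at 0.16 to 0.18 without its replicate 1, 2 or 4 and at 0.33 with the mean over probe sets) and -0.09 at BEZ235 max.

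COL4A2 arrays were close together under DMSO, at 902, 902, 901 and 899.8. BKM120 arrays held 845, 907, 815 and 833 at IC30, 843, 872, 859 and 924 at IC50 and 1011, 1052, 1032 and 1098 at IC90 (max), and BEZ235 arrays 1129, 1144, 2075 and 1069.8 at IC50, 1068, 1085, 1009 and 945 at IC90 and 1237, 1032, 928 and 1061 at max. GDC0941 arrays held 855, 837, 747 and 811 at IC50, 773, 923, 916 and 705 at IC90 and 976, 960, 1088 and 998 at max. Every array of BEZ235, of BKM120 IC90 (max) and of GDC0941 max exceeded every DMSO array, and the degraded array was the highest at 2075. GDC0941 IC50 lay wholly below DMSO. Of these only BEZ235 IC50 was called, at 0.52 (SE 0.11, adjusted p = 0.000283), and COL4A2 was 0.30 higher there without the degraded array (adjusted p = 0.000896). In a fit of BEZ235 IC50 and DMSO alone, with the degraded array, the call was lost (0.0724), and a second probe set moved by -0.02 at that level. The other changes were 0.21 at BKM120 IC90 (max), 0.18 and 0.23 at BEZ235 IC90 and max, and 0.15 at GDC0941 max, and the 4 remaining lay between -0.15 and -0.04. Without the degraded array COL4A2 was also called at BKM120 IC90 (max), 0.21 (adjusted p = 0.00922), at BEZ235 IC90, 0.18 (adjusted p = 0.0176), and at BEZ235 max, 0.23 (adjusted p = 0.0032). The mean over probe sets called these 3 too (0.20 to 0.25), as did fits of those groups alone.

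COL4A5 and COL4A6 encode chains of the type IV trimers of particular membranes, such as those of kidney and smooth muscle. COL4A6 held 47.8, 45.7, 42.9 and 53.1 on DMSO arrays, 36.5, 45.1, 34.3 and 39.4 at BKM120 IC30, 48.6, 47, 43.6 and 47.2 at IC50 and 64.2, 66.9, 52.7 and 56.4 at IC90 (max). BEZ235 arrays held 41.7, 47.6, 74.3 and 56 at IC50, 61.9, 46.1, 55.4 and 47.3 at IC90 and 67.5, 65.9, 60.1 and 66.3 at max, and GDC0941 arrays 38.3, 30.2, 46.7 and 51 at IC50, 57.5, 55, 46.1 and 54.8 at IC90 and 56.3, 50.6, 49.6 and 58 at max. All BEZ235 max arrays lay above DMSO. COL4A6 rose there by 0.35 (SE 0.11, adjusted p = 0.00509), and with the mean over its probe sets, 2 of which were at background, the change was 0.07 (adjusted p = 0.33). It was also called at BKM120 IC90 (max) without the degraded array, 0.26 (adjusted p = 0.0244). COL4A5 was called in no comparison with DMSO (-0.25 to 0.23, signals 52.7 to 127).

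**Figure D4:**
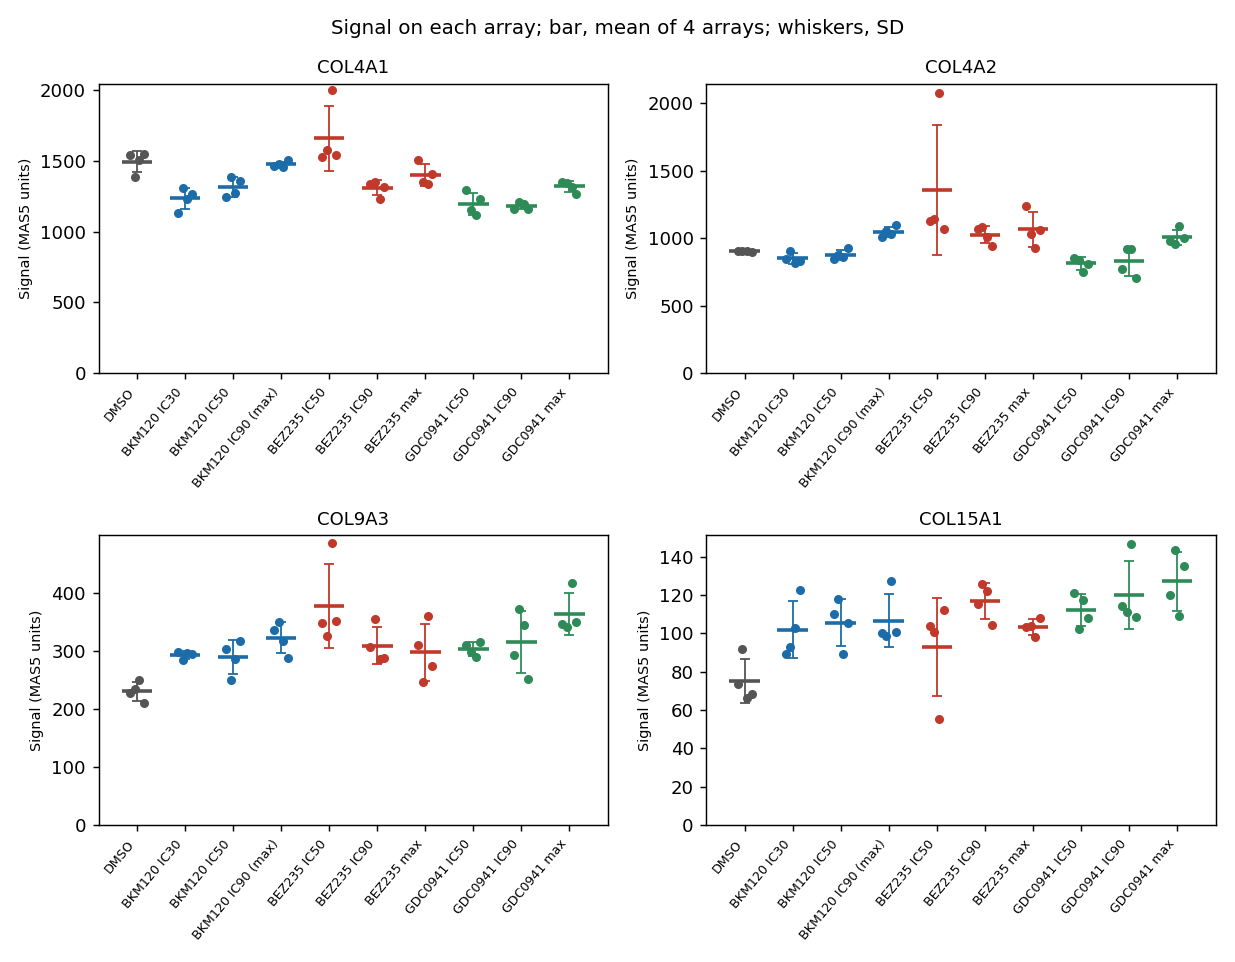
Signal of COL4A1, COL4A2, COL9A3 and COL15A1 on each array (points), with the mean (bar) and SD (whiskers) of 4 arrays, for DMSO and each treatment in order of level. The degraded array is the highest point of COL4A1 (2001), COL4A2 (2075) and COL9A3 (486) and the lowest of COL15A1 (55.2).

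Both multiplexins, whose C-terminal fragments are known to limit blood vessel growth, were measured. COL15A1 was higher in 8 of the 9 treatments. Signals were 73.6, 91.8, 66.2 and 68.5 on DMSO arrays, 89.4, 93, 103 and 123 at BKM120 IC30, 110, 118, 89.1 and 105 at IC50 and 100.2, 98.5, 127 and 100.5 at IC90 (max). GDC0941 arrays held 121, 102, 118 and 108 at IC50, 114, 111, 147 and 109 at IC90 and 120.3, 144, 109 and 135 at max. BEZ235 arrays held 104, 101, 55.2 and 112 at IC50, 116, 126, 122 and 104 at IC90 and 103, 104, 98 and 108 at max. Every array of GDC0941, of BKM120 IC90 (max) and of BEZ235 IC90 and max exceeded every DMSO array. COL15A1 rose by 0.50 (SE 0.13, adjusted p = 0.00443), 0.58 (SE 0.13, adjusted p = 0.000593) and 0.66 (SE 0.13, adjusted p = 5.62e-05) over the GDC0941 levels, by 0.43 (SE 0.13, adjusted p = 0.00714) at BKM120 IC90 (max), and by 0.55 (SE 0.13, adjusted p = 0.000331) and 0.40 (SE 0.13, adjusted p = 0.00703) at BEZ235 IC90 and max. At BKM120 IC30 the rise of 0.37 (SE 0.13, adjusted p = 0.0299) was lost without DMSO replicate 1, 3 or 4 or its own replicate 3 or 4 (adjusted p 0.0601 to 0.121) and with no filter (0.051). At BKM120 IC50 that of 0.42 (SE 0.13, adjusted p = 0.0154) was lost without DMSO replicate 3 or 4 or its own replicate 2 (0.0514 to 0.0561). At BEZ235 IC50 the change was 0.23 (SE 0.13, adjusted p = 0.134) with the degraded array and 0.42 without it (adjusted p = 0.00125).

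COL18A1, a heparan sulfate proteoglycan of basement membranes, held 206, 216, 194 and 201 on DMSO arrays, 252, 245, 238 and 202 at BKM120 IC30, 240.1, 226, 248 and 242 at IC50 and 283, 256, 249.7 and 279.9 at IC90 (max). GDC0941 arrays held 208, 211, 216 and 223 at IC50, 244, 239, 224 and 202 at IC90 and 259, 246, 267 and 247 at max, and BEZ235 arrays 255, 239, 424 and 221 at IC50, 199.7, 175, 192 and 186 at IC90 and 191, 182, 164 and 171 at max. BKM120 IC50 and IC90 (max), BEZ235 IC50 and GDC0941 max lay wholly above DMSO, and BEZ235 max lay wholly below it. COL18A1 rose by 0.36 (SE 0.10, adjusted p = 0.00658) at BKM120 IC90 (max) and by 0.30 (SE 0.10, adjusted p = 0.0201) at GDC0941 max, a call lost without DMSO replicate 3 or its own replicate 3 (adjusted p 0.0526 to 0.0534). It rose by 0.40 (SE 0.10, adjusted p = 0.00196) at BEZ235 IC50, or 0.20 without the degraded array (0.0172), and the call was lost in a fit of BEZ235 IC50 and DMSO alone (0.141). The changes of -0.11 and -0.20 at BEZ235 IC90 and max did not pass, and a second probe set had the opposite sign there (0.09 and 0.09). COL18A1 was also called, without the degraded array, at BKM120 IC30, 0.18 (adjusted p = 0.0329), at BKM120 IC50, 0.21 (adjusted p = 0.0123), and as lower at BEZ235 max, -0.20 (adjusted p = 0.00856).

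COL7A1 forms the anchoring fibrils that fix the skin's basement membrane to the dermis, and it was lower under GDC0941 and at the highest level of BKM120. GDC0941 arrays held 39.5, 38.1, 43.8 and 48.7 at IC50, 36.7, 37.5, 43 and 34.4 at IC90 and 30.6, 32.7, 40.7 and 39.2 at max, beside 52.3, 61.8, 48.5 and 51.5 on DMSO arrays. BKM120 arrays held 43.3, 41.9, 47.6 and 46.1 at IC30, 47.1, 45.3, 39.6 and 46.5 at IC50 and 34.8, 39, 31.4 and 41.2 at IC90 (max). Apart from replicate 4 of GDC0941 IC50, all of these arrays lay below the lowest DMSO array. COL7A1 fell by 0.37 (SE 0.081, adjusted p = 0.000718) at GDC0941 IC90, by 0.43 (SE 0.081, adjusted p = 4.54e-05) at GDC0941 max and by 0.40 (SE 0.081, adjusted p = 0.000145) at BKM120 IC90 (max). The fall of 0.25 (SE 0.081, adjusted p = 0.0299) at GDC0941 IC50 was lost without DMSO replicate 2 or its own replicate 1 or 2 (adjusted p 0.0809 to 0.143), with no filter, with the mean over probe sets and in a fit of those groups alone (0.062 to 0.423). The changes at BKM120 IC30 and IC50 were -0.19 (SE 0.081, adjusted p = 0.0875) and -0.20 (SE 0.081, adjusted p = 0.0838). BEZ235 arrays held 39.5, 46.9, 42 and 47.4 at IC50, 56.6, 50.9, 53.2 and 54.3 at IC90 and 47.9, 51, 52.5 and 55.6 at max, and only the first lay below DMSO. The fall of 0.21 (SE 0.081, adjusted p = 0.0304) there was lost without the degraded array (0.0638), without DMSO replicate 2 (0.137) or BEZ235 IC50 replicate 1 (0.0968), and under 4 other settings (0.0607 to 0.188), and the changes at the upper levels were 0.01 and -0.03.

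COL6A1, a chain of the beaded filaments around cells, was higher under BEZ235. Its arrays held 176, 202, 336 and 159.7 at IC50, 195, 179, 237 and 212 at IC90 and 258, 243, 245 and 243 at max, beside 138, 191, 149 and 172 on DMSO arrays. Only BEZ235 max lay wholly above DMSO, with a rise of 0.57 (SE 0.13, adjusted p = 0.000271). At BEZ235 IC50 the rise of 0.35 (SE 0.13, adjusted p = 0.0263) was lost without the degraded array (0.13, adjusted p = 0.29) or DMSO replicate 1 (0.102) or 3 (0.0699) and in a fit of those groups alone (0.259). At BEZ235 IC90 that of 0.32 (SE 0.13, adjusted p = 0.0365) was lost without DMSO replicate 1 or 3 or its own replicate 3 or 4 (0.0739 to 0.133) and with no filter (0.0553). GDC0941 arrays held 183, 142, 166 and 136 at IC50, 198, 160.5, 195 and 167 at IC90 and 189, 244, 197 and 226 at max, and BKM120 arrays 132, 157, 149.5 and 164 at IC30, 179, 164, 168 and 178 at IC50 and 204, 182, 195 and 209.7 at IC90 (max). GDC0941 max overlapped DMSO in replicate 1, and the rise of 0.37 (SE 0.13, adjusted p = 0.0192) was lost without DMSO replicate 1 or 3 or its own replicate 2 or 4 (0.0511 to 0.0816). The other 5 changes lay between -0.09 and 0.27, of which BKM120 IC90 (max) was called without the degraded array, 0.27 (adjusted p = 0.0194).

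COL8A1, a short-chain collagen that forms hexagonal nets in vessel walls and the cornea, fell under BEZ235. BEZ235 arrays held 32.6, 24, 10.4 and 22 at IC50, 18.7, 20.6, 24.6 and 21.7 at IC90 and 29.4, 27.9, 30.9 and 27.5 at max, beside 42.5, 62.3, 52.7 and 53.9 on DMSO arrays. All 12 lay below all 4 DMSO arrays. The falls were 0.87 (SE 0.12, adjusted p = 1.47e-07) at IC50 (0.71 without the degraded array), 0.88 (SE 0.12, adjusted p = 5.57e-08) at IC90 and 0.61 (SE 0.12, adjusted p = 2.74e-05) at max. GDC0941 arrays held 55.3, 64, 51 and 52.3 at IC50, 70.1, 69, 65 and 70.3 at IC90 and 85.1, 82.7, 76.8 and 79.7 at max, the upper levels wholly above DMSO. COL8A1 rose by 0.50 (SE 0.12, adjusted p = 0.000538) at GDC0941 max, a call lost with the mean over its 3 probe sets (0.16, adjusted p = 0.0507), and differed by 0.06 and 0.30 at the lower levels, the second called without the degraded array, 0.30 (adjusted p = 0.0107). BKM120 arrays held 65.6, 60, 61.4 and 41.7 at IC30, 59, 64.7, 54.8 and 55.8 at IC50 and 58.2, 43.8, 50.4 and 52.4 at IC90 (max), within or across the DMSO range, with changes of 0.08, 0.12 and -0.03.

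COL13A1, a transmembrane collagen of cell junctions and the neuromuscular synapse, lay just below the limit for testing. Its signals were 21.7, 19.3, 10.7 and 19.1 on DMSO arrays, 8.9, 10.7, 10.9 and 7.7 at BKM120 IC30, 12.7, 6.3, 13.9 and 12.9 at IC50 and 28.4, 34.5, 36.7 and 42.3 at IC90 (max). The highest level of BKM120 lay above all 36 other arrays. BEZ235 arrays held 9.9, 11.3, 22.2 and 11.6 at IC50, 10.3, 5.8, 11.1 and 13 at IC90 and 7.1, 14.8, 10 and 10.7 at max, and GDC0941 arrays 11.3, 11.2, 15.3 and 8.7 at IC50, 13.8, 8.5, 6.2 and 14.5 at IC90 and 13.4, 11.9, 7.1 and 10.8 at max. In a limma fit with no filter on dim genes, COL13A1 rose by 0.62 (SE 0.13, adjusted p = 0.000322) at BKM120 IC90 (max), and fell by 0.39 (SE 0.13, adjusted p = 0.0381) at BKM120 IC30, 0.37 (SE 0.13, adjusted p = 0.0211) at BEZ235 IC90 and 0.33 (SE 0.13, adjusted p = 0.0354) at BEZ235 max. The rise held whichever array was left out (0.51 to 0.69). The falls at BKM120 IC30 (adjusted p 0.0544 to 0.136), BEZ235 IC90 (0.055 to 0.109) and BEZ235 max (0.0579 to 0.136) were lost without DMSO replicate 1, 2 or 4, or without any array of BKM120 IC30, BEZ235 IC90 replicate 2, or BEZ235 max replicate 1, 3 or 4.

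The 10 other genes above background but not tested were COL5A2, COL24A1, COL25A1, COL6A2, COL21A1, COL19A1, COL14A1, COL6A3, COL20A1 and COL2A1, with signals of 1.6 to 35 and changes against DMSO of -0.41 to 0.41 in the fit with no filter. In that fit 10.2% higher and 9.96% lower of all 19775 genes were called at BKM120 IC90 (max), 15.4% higher and 11.2% lower at BEZ235 IC50, 19.6% higher and 14.7% lower at BEZ235 IC90, 20.9% higher and 15.5% lower at BEZ235 max, and 15.4% higher and 10.9% lower at GDC0941 max. Of the 10 genes 7 were called there against DMSO. COL14A1, a fibril-associated collagen, held 8, 4.9, 4 and 4.6 at BEZ235 IC50, 4.5, 2.9, 4.9 and 5.5 at IC90 and 6.6, 3.4, 3.9 and 2.7 at max, and 3.7, 4.4, 5.7 and 6.1 at GDC0941 max, beside 11.2, 12.8, 11.8 and 6 on DMSO arrays. It fell by 0.30 (SE 0.082, adjusted p = 0.00444), or 0.27 without the degraded array (0.0191), by 0.37 (SE 0.082, adjusted p = 0.000412) and by 0.39 (SE 0.082, adjusted p = 0.000171) over the BEZ235 levels and by 0.33 (SE 0.082, adjusted p = 0.00191) at GDC0941 max, and these calls held whichever array was left out. Only BEZ235 IC90 lay wholly below DMSO. Mean signals of COL14A1 were 5.375, 4.45 and 4.15 over the BEZ235 levels and 4.975 at GDC0941 max, beside 10.45 in DMSO. At these levels it was thus under the background limit of 6.65. COL25A1, a transmembrane collagen of neurons, held 9.2, 4.7, 7.2 and 3.9 at BEZ235 max and 12.8, 15.9, 10.2 and 10.6 in DMSO, wholly apart, and fell by 0.35 (SE 0.10, adjusted p = 0.00369), which also held. Its mean signal at BEZ235 max, 6.25, was under the background limit too.

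Each of the remaining dim calls was lost on leaving out 1 array. COL5A2, the second chain of type V collagen, held 20.1, 19.2, 20.8 and 20.9 at BKM120 IC90 (max) and 20, 12.1, 35 and 12.2 at BEZ235 IC50, beside 9.6, 17.1, 11.1 and 8 on DMSO arrays. The first lay wholly above DMSO, and COL5A2 rose there by 0.41 (SE 0.13, adjusted p = 0.0194), a call lost without DMSO replicate 1 or 4 (0.058 to 0.0813). Its rise of 0.35 (SE 0.13, adjusted p = 0.0416) at BEZ235 IC50 was lost without the degraded array (0.17, adjusted p = 0.343), without DMSO replicate 1, 3 or 4 or without its own replicate 1 (0.0731 to 0.142). COL20A1, a fibril-associated collagen, held 14.6, 11.7, 8.4 and 8.4 at BEZ235 IC50 and 8, 6.2, 4.8 and 4.2 in DMSO, without overlap. It rose by 0.29 (SE 0.088, adjusted p = 0.0105), or 0.34 without the degraded array (0.00626), a call lost without BEZ235 IC50 replicate 1 (0.0621). The mean signal of COL20A1 in DMSO, 5.8, was under the background limit of 6.65. COL24A1, a fibrillar collagen of bone, held 7.9, 5.8, 6.3 and 8.4 at BEZ235 max and 5.8, 14.7, 17.6 and 23.6 in DMSO, with overlap, and its fall of 0.41 (SE 0.14, adjusted p = 0.0151) was lost without DMSO replicate 3 or 4 (0.0512 to 0.111). COL6A2 held 10.9, 16.1, 13 and 14.6 at BEZ235 max and 7.8, 11.4, 6 and 7.4 in DMSO, with overlap, and its rise of 0.30 (SE 0.10, adjusted p = 0.0151) was lost without DMSO replicate 3 or BEZ235 max replicate 2 (0.058 to 0.0618). COL6A3 held 6.9, 6.7, 4.5 and 3.8 at BEZ235 IC90 and 7.6, 15.8, 11.7 and 6.9 in DMSO, where the highest BEZ235 array equalled the lowest DMSO array, and its fall of 0.29 (SE 0.10, adjusted p = 0.0147) was lost without DMSO replicate 2 or BEZ235 IC90 replicate 4 (0.0575 to 0.115). The mean signal of COL6A3 at BEZ235 IC90, 5.475, was under that limit too. COL21A1, COL19A1 and COL2A1 were called in none of the 9 comparisons.

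**Figure D5:**
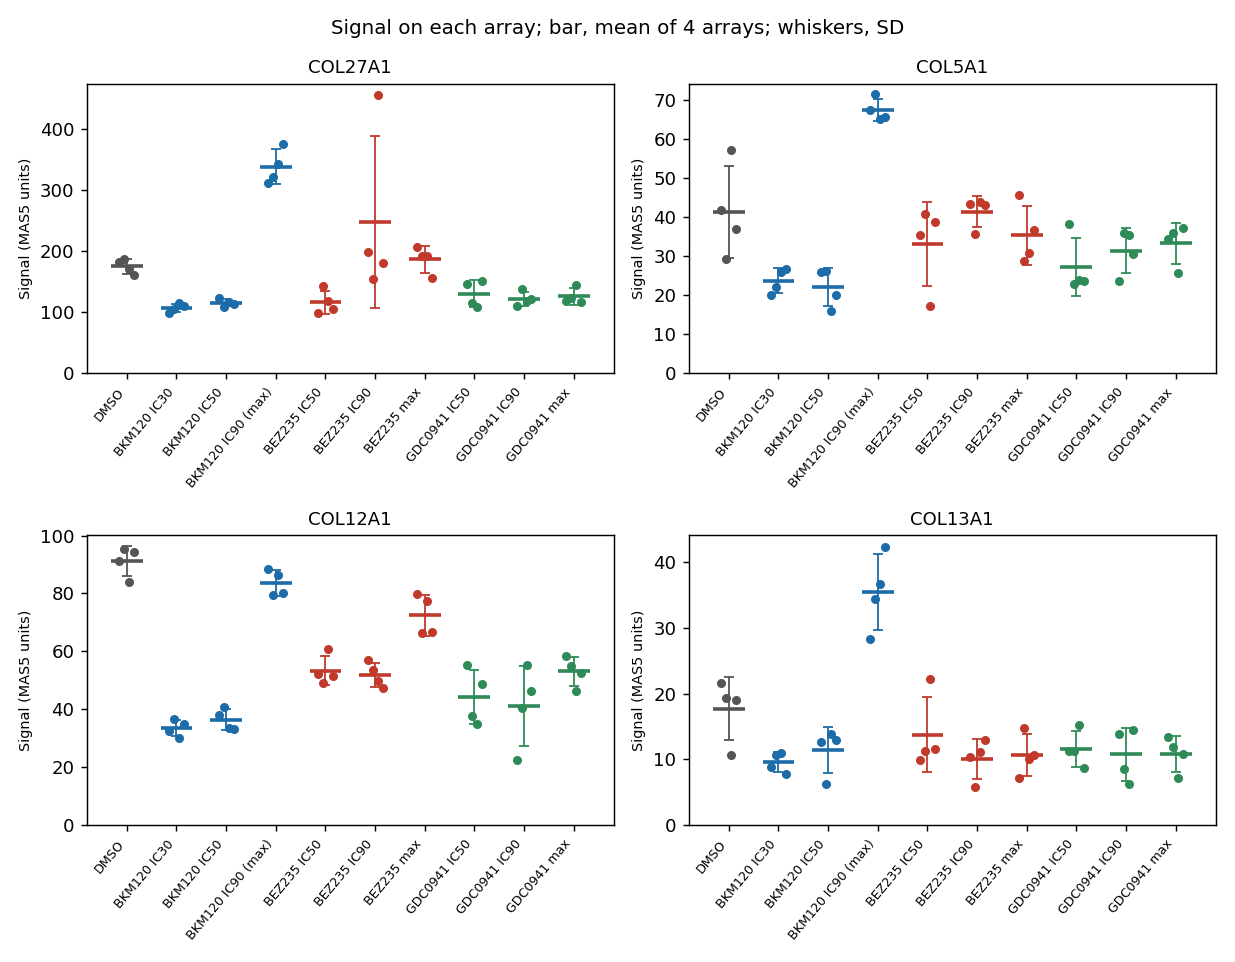
Signal of COL27A1, COL5A1, COL12A1 and COL13A1 on each array (points), with the mean (bar) and SD (whiskers) of 4 arrays, for DMSO and each treatment in order of level. COL27A1, COL5A1 and COL13A1 are low at BKM120 IC30 and IC50 and highest as a group at IC90 (max), where COL12A1 overlaps DMSO.

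The compounds were compared directly at the levels they share by name, in 6 pairs with p adjusted over all genes within each. IC90 of BKM120 is the level labelled IC90 (max), and equal names do not mean equal concentrations. BKM120 and GDC0941, both class I PI3K inhibitors, gave no collagen gene called at IC50 (limma), where 0.598% of all tested genes were called (0.455% higher, 0.143% lower). At an unadjusted p under 0.05 there were 2 genes, and the 95% intervals of the 19 differences ran from -0.52 to 0.71, so differences within that range remain possible. BKM120 minus BEZ235 at IC50 called 6 genes (2 higher, 4 lower), where 32.2% of all tested genes were called (15.5% higher, 16.8% lower), and BEZ235 minus GDC0941 at IC50 called 9 (7 higher, 2 lower), where 33.9% of all tested genes were called (18.2% higher, 15.7% lower). COL8A1 and COL5A3 were lower under BEZ235 than under either other compound at IC50. COL8A1 was 0.99 (SE 0.12, adjusted p = 4.41e-08) higher in BKM120 than in BEZ235, and BEZ235 minus GDC0941 was -0.94 (SE 0.12, adjusted p = 1.02e-07). For COL5A3 the differences were 0.42 (SE 0.10, adjusted p = 0.00207) for BKM120 minus BEZ235 and -0.42 (SE 0.10, adjusted p = 0.00206) for BEZ235 minus GDC0941. COL12A1 was lower in BKM120 than in BEZ235 at IC50, by 0.41 (SE 0.12, adjusted p = 0.00702). Without the degraded array BKM120 minus BEZ235 was 0.83 for COL8A1, 0.39 for COL5A3 and -0.36 for COL12A1, and BEZ235 minus GDC0941 was -0.77 for COL8A1 and -0.38 for COL5A3, all still called. The counts without that array were 0 (0 higher, 0 lower) for BKM120 minus GDC0941, 6 (2 higher, 4 lower) for BKM120 minus BEZ235 and 7 (3 higher, 4 lower) for BEZ235 minus GDC0941. For BEZ235 minus GDC0941 the calls of COL18A1, COL4A6, COL6A1, COL9A2 and COL9A3 were lost (0.14 to 0.19, adjusted p 0.124 to 0.292), and COL11A2 at -0.41 (adjusted p = 0.00735), COL3A1 at -0.44 (adjusted p = 0.00908) and COL5A1 at 0.34 (adjusted p = 0.0404) were added. For BKM120 minus BEZ235 COL9A3 was lost, -0.24 (adjusted p = 0.0733), and COL5A1 added, -0.52 (adjusted p = 0.00255).

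At IC90, BKM120 minus GDC0941 called 7 genes (6 higher, 1 lower), where 30% of all tested genes were called (11.7% higher, 18.3% lower). COL27A1 was higher in BKM120 by 1.36 (SE 0.16, adjusted p = 2.36e-08), COL12A1 by 0.84 (SE 0.12, adjusted p = 3.86e-07), COL5A1 by 0.82 (SE 0.14, adjusted p = 1.70e-05) and COL4A1 by 0.32 (SE 0.061, adjusted p = 9.30e-05). These 4 calls held under all alternatives that tested the gene, and on all 4 the groups did not overlap. BKM120 minus BEZ235 called 10 (9 higher, 1 lower), where 45.2% of all tested genes were called (18.5% higher, 26.7% lower). Of them 8 held under all alternatives, among them COL8A1 at 0.84 (SE 0.12, adjusted p = 1.88e-07), COL3A1 at 0.79 (SE 0.14, adjusted p = 1.16e-05), COL1A1 at 0.76 (SE 0.15, adjusted p = 6.94e-05), COL5A3 at 0.61 (SE 0.10, adjusted p = 8.14e-06) and COL18A1 at 0.47 (SE 0.10, adjusted p = 0.000301). COL7A1 was the gene lower in BKM120 than in BEZ235, by 0.41 (SE 0.081, adjusted p = 7.12e-05). BEZ235 minus GDC0941 called 9 (5 higher, 4 lower), where 43% of all tested genes were called (23% higher, 20% lower). Of the 4 lower in BEZ235, COL8A1 differed most, at -1.18 (SE 0.12, adjusted p = 2.00e-10), then COL3A1 at -0.95 (SE 0.14, adjusted p = 6.28e-07), COL5A3 at -0.73 (SE 0.10, adjusted p = 4.02e-07) and COL1A1 at -0.59 (SE 0.15, adjusted p = 0.00147). COL27A1 was higher in BEZ235 than in GDC0941 by 0.81 (SE 0.16, adjusted p = 0.000112), or 0.49 without the BEZ235 IC90 replicate 3 that held 456. The 3 counts at IC90 were 8 (7 higher, 1 lower), 11 (10 higher, 1 lower) and 13 (7 higher, 6 lower) without the degraded array, in the order given.

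Within a compound, the highest level was compared with the lowest. BKM120 IC90 (max) minus IC30 called 9 genes (8 higher, 1 lower), where 34% of all tested genes were called (14.3% higher, 19.7% lower). COL27A1 was higher by 1.52 (SE 0.16, adjusted p = 1.74e-09), COL5A1 by 1.07 (SE 0.14, adjusted p = 1.33e-07), COL12A1 by 1.01 (SE 0.12, adjusted p = 6.47e-09), COL4A6 by 0.47 (SE 0.11, adjusted p = 0.000664) and COL4A1 by 0.26 (SE 0.061, adjusted p = 0.00105), and these 5 held under all alternatives that tested the gene. Leaving out BKM120 IC30 replicate 1 or BKM120 IC90 (max) replicate 1 left these 5 calls out of 9. BEZ235 max minus IC50 called 9 (2 higher, 7 lower), where 39.1% of all tested genes were called (20.4% higher, 18.7% lower). COL1A1 was lower by 0.92 (SE 0.15, adjusted p = 5.78e-06) and COL3A1 by 0.60 (SE 0.14, adjusted p = 0.000622), and COL27A1 higher by 0.62 (SE 0.16, adjusted p = 0.00277), and without the degraded array these were -0.73, -0.46 and 0.63. The count without it was 9 (4 higher, 5 lower): COL4A2, -0.07 (adjusted p = 0.46), and COL9A3, -0.20 (adjusted p = 0.109), were lost, and COL6A1, 0.43 (adjusted p = 0.000694), and COL4A6, 0.33 (adjusted p = 0.00895), were added. For BKM120 the count without it was 11 (10 higher, 1 lower). GDC0941 max minus IC50 called 5 (4 higher, 1 lower), where 29.6% of all tested genes were called (16.2% higher, 13.4% lower). Of those COL8A1, higher by 0.44 (SE 0.12, adjusted p = 0.00361), held under all alternatives, and 2 to 6 genes were called when any array of these groups was left out. The fewest, 2, came without GDC0941 max replicate 2 or 4, and 3 came without GDC0941 IC50 replicate 2 or 4 or GDC0941 max replicate 1. Without the degraded array, which is in neither group, the count was 8 (7 higher, 1 lower).

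The change between IC50 and IC90 (the step) was set against that of another compound with interaction contrasts, which leave DMSO out. BKM120 minus GDC0941 called 3 genes, all with a higher step in BKM120, where 19.4% of all tested genes were called (7.43% higher, 11.9% lower). They were COL27A1 at 1.51 (SE 0.23, adjusted p = 6.99e-06), COL12A1 at 1.03 (SE 0.16, adjusted p = 1.27e-05) and COL5A1 at 1.00 (SE 0.20, adjusted p = 0.000337). BKM120 minus BEZ235 called 9 (8 higher, 1 lower), where 24.6% of all tested genes were called (9.84% higher, 14.8% lower), and BEZ235 minus GDC0941 called 5 (1 higher, 4 lower), where 9.81% of all tested genes were called (5.04% higher, 4.77% lower). COL12A1 at 0.96 (SE 0.16, adjusted p = 2.70e-05), COL5A1 at 0.89 (SE 0.20, adjusted p = 0.00105) and COL1A1 at 0.86 (SE 0.21, adjusted p = 0.00242) had the largest differences of step between BKM120 and BEZ235, and without the degraded array these were 0.91, 1.06 and 0.67. Without it the counts were 5 (4 higher, 1 lower) for BKM120 minus GDC0941, 8 (7 higher, 1 lower) for BKM120 minus BEZ235 and 5 (1 higher, 4 lower) for BEZ235 minus GDC0941. In a fit of those 4 groups alone no collagen gene's step was called between BEZ235 and GDC0941, and no share of all tested genes is given for that fit.

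Collagen chains are folded and modified in the endoplasmic reticulum before export, and 24 genes of that machinery were followed, 20 of them tested. At BEZ235 IC90, 3 rose and 14 fell, where 30.8% and 24.1% of all tested genes did, with a median change of -0.33 beside 0.04. The numbers that rose and fell were 3 and 13 at BEZ235 max (all tested genes 32.7% and 25.2%), 2 and 8 at BEZ235 IC50 (26.3% and 19.2%, and 1 and 12 of the list without the degraded array) and 1 and 12 at GDC0941 max (25.5% and 18.4%). They were 0 and 4 at GDC0941 IC50 and 1 and 7 at GDC0941 IC90, and 0 and 5, 1 and 4, and 1 and 7 over the BKM120 levels, beside the shares of all tested genes given with the collagen counts. SEC24D, a coat protein of the vesicles that export procollagen, had a mean signal of 60.5 at BEZ235 IC90 and 187 in DMSO, a change of -1.41 (limma adjusted p = 4.2e-12). FKBP14, a prolyl isomerase of collagen folding, had 276.5 at BEZ235 max and 633 in DMSO (-1.15, adjusted p = 1.88e-19). P4HA2, a subunit of the prolyl hydroxylase that stabilises the helix, fell in all 9 treatments, with 187 at BEZ235 IC90 and 402 in DMSO (-1.05). COLGALT1, which adds galactose to hydroxylysine, was called only at BEZ235 IC50 among the 9 (-1.07, adjusted p = 0.00507), and the change was -0.33 without the degraded array.

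Of 14 crosslinking and processing genes 7 were tested. Shares of all tested genes that rose and fell are given with the collagen counts. Of the 7, 2 rose and 2 fell at BKM120 IC90 (max), 2 and 4 at BEZ235 max, and 2 and 3 at GDC0941 max. At BEZ235 IC50 the numbers were 2 and 3, or 1 and 4 without the degraded array. LOXL2, a lysyl oxidase that crosslinks type IV collagen, had a mean signal of 139 at BKM120 IC30, 160.3 at IC50 and 251 at IC90 (max), beside 261 in DMSO, with changes of -0.84, -0.65 and -0.05, of which the last did not pass. It fell at all levels of BEZ235 and GDC0941, with changes of -0.69 at GDC0941 IC50 and -1.26 at BEZ235 max, and -0.70 at BEZ235 IC50 (-0.87 without the degraded array). LOXL3, a related oxidase, fell by 0.77 at BEZ235 IC90, and ADAMTS3, a procollagen N-proteinase, by 0.90 at GDC0941 max. PCOLCE, which enhances C-propeptide cleavage, rose in all 9 treatments, by 0.36 at BKM120 IC50 and by 0.78 at BEZ235 IC50 (0.66 without the degraded array). Among receptors, 6 of 10 were tested. Of these 1 rose and 2 fell at BKM120 IC90 (max), 4 and 1 at BEZ235 max, and 2 and 1 at GDC0941 max. At BEZ235 IC50 receptors numbered 3 and 1, or 2 and 1 without the degraded array. The collagen-binding integrin chain ITGA10 rose by 0.80 at GDC0941 max, and ITGA2 fell by 0.72 at GDC0941 IC50 and rose by 0.34 at BEZ235 max. The endocytic receptor MRC2 rose by 0.68 at BEZ235 IC50 (0.32 without the degraded array), and ITGA1 rose by 0.31 at BEZ235 max.

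Of 18 degradation genes 12 were tested. Of all tested genes, 17.3% rose and 17.3% fell at BKM120 IC90 (max), and 32.7% and 25.2% at BEZ235 max. At GDC0941 max the shares were 25.5% and 18.4%, and at BEZ235 IC50 26.3% and 19.2%. Of the 12, 4 rose and 2 fell at BKM120 IC90 (max), 5 and 4 at BEZ235 max, and 4 and 4 at GDC0941 max. At BEZ235 IC50 7 rose and 1 fell, or 7 and 2 without the degraded array. The median change there was 0.25, beside 0.03 for all tested genes, and without the degraded array these were 0.195 and 0.015. MMP8, a neutrophil collagenase, fell by 0.91 at GDC0941 max and by 0.89 at BEZ235 max, and the membrane-type proteases MMP15 and MMP16 fell by 0.80 and 0.79 at BEZ235 max. MMP2, the gelatinase that cleaves type IV collagen, rose in 7 of 9 treatments, by 0.74 at BEZ235 IC50 (0.59 without the degraded array). Of 14 collagen-binding matrix genes 11 were tested. Of the 11, 3 rose and 0 fell at BKM120 IC90 (max), 1 and 4 at BEZ235 max, and 2 and 1 at GDC0941 max. At BEZ235 IC50 5 rose and 1 fell, or 3 and 0 without the degraded array. THBS1, a matricellular glycoprotein, had a mean signal of 414 at BKM120 IC30, 570.3 at IC50 and 1252 at IC90 (max), beside 1109 in DMSO, with changes of -1.40, -0.96 and 0.17, of which the last did not pass. FN1, the fibronectin on which collagen fibrils assemble, rose at all BEZ235 levels, by 0.62 at IC50 (0.49 without the degraded array), 0.69 at IC90 and 0.78 at max, and MATN2, an adaptor of matrix filaments, fell by 0.74 at BEZ235 max. HSPG2, the basement membrane proteoglycan perlecan, rose by 0.51 at BKM120 IC90 (max). These lists were chosen with earlier results of the data known, and their counts are descriptions.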

How the data were processed

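The data were 40 one-colour arrays of 54675 probe sets. Per the submitters' processing notes, the deposited values are MAS5 signal intensities on a linear scale, and no MAS5 version is named there. Probe sets were named from the platform annotation: 41097 had a single symbol, 1801 several and 11777 none, and those with several or none were not used. Each gene was read from its brightest probe set by mean log2(signal + 16) over all arrays. For genes other than collagens, probe sets marked as cross-hybridising were taken only where there was no other. Genes above the 40th percentile of mean level (11865) were fitted in R 4.3.3 with limma 3.58.1 (lmFit, and eBayes with a trend) over all 10 groups, with Benjamini-Hochberg adjustment within each of 21 contrasts. The fit was tested on simulated data. Alternatives changed the pseudocount, filter, normalization, probe set rule, trend, block and arrays. Genes above background are all named, with array values for those called in that fit and, below its filter, for those called against DMSO with no filter (each array left out of that fit in turn was an alternative chosen after seeing the data), and up to 4 called genes in each other list. The members and lists were chosen with earlier results of these data known. Replicate numbers did not pair the arrays: deviations from group means had a median correlation of -0.0153 over 180 pairs with the same number and 0.00502 over 540 pairs with different numbers.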

Additional observations from a re-analysis of the deposited data

Results flagged for a closer look

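Within a group of 4 arrays, Dixon's test on log2 values picked out 14 of 190 gene and group combinations in which 1 array lay far from the others. Chance picks about 1 group in 20, and 4 of the 14 were the degraded array. That array, replicate 3 of BEZ235 IC50, read 2000.6 for COL4A1, 2075.4 for COL4A2, 69.8 for COL11A2 and 55.2 for COL15A1. For BKM120, replicate 3 at IC90 (max) read 127.2 for COL15A1, replicate 4 at IC30 read 45.9 for COL1A1 and 79.7 for COL3A1, and replicate 1 at IC50 read 26.3 for COL9A2. For BEZ235, replicate 2 at IC90 read 35.6 for COL5A1 and replicate 1 at max read 257.7 for COL6A1. For GDC0941, replicate 1 at IC50 read 38.2 for COL5A1 and replicate 3 at max read 418 for COL9A3. Among DMSO arrays, replicate 2 read 53.6 for COL16A1 and replicate 3 read 26.1 for COL1A1.

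The step from IC50 to IC90 differed between compounds, by limma's interaction contrasts, in 17 of 57 cases. BKM120 minus GDC0941 was 1.507 for COL27A1, 1.026 for COL12A1 and 0.9998 for COL5A1. BKM120 minus BEZ235 was 0.9611 for COL12A1, 0.8854 for COL5A1, 0.8598 for COL1A1, 0.665 for COL18A1, 0.6285 for COL3A1, 0.5977 for COL4A2, 0.4946 for COL4A1, 0.4189 for COL9A3 and -0.4269 for COL7A1. BEZ235 minus GDC0941 was 0.9561 for COL27A1, -0.8264 for COL1A1, -0.6567 for COL3A1, -0.5884 for COL18A1 and -0.3136 for COL4A1, and none of these 5 held under all alternatives. Without BEZ235 IC90 replicate 3 the COL27A1 value was 0.63.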

How the results depend on the processing

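Of 157 calls, 87 held under every alternative that tested the gene and 105 whichever array was left out. Not every alternative tested every gene: the mean over probe sets covered 135 of the 157 calls, of which it kept 115. A filter at the 60th percentile tested only COL4A1, COL4A2, COL9A3, COL18A1, COL6A1 and COL27A1 of the 19 collagen genes. It called 3, 3 and 3 over the BKM120 levels against DMSO, 5, 3 and 2 over BEZ235 and 2, 3 and 5 over GDC0941, 29 in all against 76. Between compounds it called 18 against 41: 3 for BKM120 minus BEZ235 and 5 for BEZ235 minus GDC0941 at IC50, and at IC90 3 for BKM120 minus GDC0941, 3 for BKM120 minus BEZ235 and 4 for BEZ235 minus GDC0941. Between highest and lowest level it called 11 against 23 (BKM120 4, BEZ235 5, GDC0941 2), and for the steps 8 against 17 (1 for BKM120 minus GDC0941, 4 for BKM120 minus BEZ235, 3 for BEZ235 minus GDC0941). Of the 157 calls, 64 were on genes that this filter tested. All 64 were kept, 0 were lost and 2 were added, so its lower counts come from the genes it did not test. The mean over probe sets called 4 at BKM120 IC50, and gave COL4A2 a difference of 0.0001928 for BEZ235 max minus IC50 (adjusted p = 0.999), opposite in sign to -0.29. Fits of the compared groups alone called 14 at BKM120 IC90 (max), 5 at BEZ235 IC50, 3 for BKM120 minus BEZ235 and 3 for BEZ235 minus GDC0941 at IC50, 3 for BEZ235 max minus IC50, and 6 steps for BKM120 minus GDC0941 and 0 for BEZ235 minus GDC0941. The shares of all tested genes given earlier come from other fits. They are not a background for the counts under the alternatives in this section, for which no share is given. Without the degraded array 8 were called for GDC0941 max minus IC50 and 5 steps for BKM120 minus GDC0941. With background at the 99th percentile of the silent families, 7 collagen genes were above it. Where the counts changed under alternatives other than the 60th percentile filter, the cause was not tested. Leaving out 1 array gave 3 to 6 at BKM120 IC50 (fewer than 5 without DMSO replicate 1, 3 or 4 or BKM120 IC50 replicate 1), 4 to 6 for BKM120 minus GDC0941 at IC90 (4 without GDC0941 IC90 replicate 4), 5 to 8 for BKM120 IC90 (max) minus IC30 and 2 to 6 for GDC0941 max minus IC50. A replicate block kept 154 calls, lost 3 and added 1, so the block changed few calls. None of the 9 settings that refitted all groups, which exclude fits of the compared groups alone and fits without 1 further array, moved the median of all genes by more than 0.0463.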
